A study of Mus musculus with 16 samples.

Results

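The c-Jun-only regions are stretches of the mouse genome that carried a c-Jun peak in proliferating primary myoblasts and no peak of RUNX1, MyoD or MyoG. They were chosen by the presence and absence of peaks: the 4 deposited peak lists were merged wherever peaks overlapped by 1 bp or more on chromosomes 1 to 19 of build mm9, and merged regions that held c-Jun peaks alone were kept. Of 97753 merged regions, 13905 (14.2%) met the rule. They made up 34.0% of the 40939 regions with a c-Jun peak (95% Wilson interval 33.5% to 34.4%, which covers counting error only). Each of them held exactly 1 c-Jun peak. Among the 14973 c-Jun regions free of both RUNX1 and MyoD they were 92.9%, the rest being shared with MyoG alone.

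c-Jun is a basic leucine zipper protein that pairs with Fos proteins, other Jun proteins or ATF proteins to form the transcription factor AP-1. AP-1 binds short palindromic elements in enhancers and promoters and responds to growth factors and stress. In muscle precursor cells c-Jun is known for its role in proliferation and for its antagonism with MyoD, the helix-loop-helix factor that sets the muscle lineage. RUNX1 is a Runt-domain factor of regenerating muscle, and MyoG is the helix-loop-helix factor that drives early differentiation.

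Chromatin immunoprecipitation with sequencing (ChIP-seq) was done on satellite cells, the muscle stem cells, isolated from gastrocnemius muscles of wild-type C57BL/6 mice 2 to 3 weeks old. Proliferating myoblasts at 3 days of culture gave the RUNX1, MyoD and c-Jun samples. The MyoG samples came from cells at 4 days of culture that had spent the last 24 hours in low-serum differentiation medium with insulin, labelled as myotubes. Each of the 4 factors had 2 ChIP samples and 2 control samples, 16 samples in all, and the labels call the repeats of each factor biological. The controls were non-immune rabbit serum for RUNX1, rabbit IgG for c-Jun and mouse IgG for MyoD and MyoG, and the lists give no separate values for them. The list taken as MyoG carries only an abbreviation and was assigned by elimination. MyoG differs from the other factors in both target and stage, so the effects of the factor and the stage cannot be told apart in any MyoG comparison.

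Each list holds 1 set of peaks per factor with 1 score per peak. Replicates are not separated and no read counts are given. Spread between cultures and the depth of each library are therefore unknown, and no value below has a test across samples. Values are set beside their range over the 19 chromosomes, which describes variation along the genome and not between animals. On these chromosomes the lists held between 41480 peaks (c-Jun) and 61491 peaks (MyoG), with a lowest score of 50.01 in every list. A region without a RUNX1, MyoD or MyoG peak is one where no peak of that factor reached its list, and binding too weak to be listed may still have occurred there. Peak lists carry no marker levels, so the labelled cell type could not be checked.

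The c-Jun score, which the authors' software gave to each peak, had a lower median in c-Jun-only regions than over the whole c-Jun list, which includes them. Scores ran from 50.01 to 3209, with a median of 116.7, and 90% of the regions scored below 499.9. Of the 13905 regions, 5968 (42.9%) scored below 100. The median differed little between chromosomes, from 106.1 on chromosome 11 to 127.4 on chromosome 13.

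Peaks of the same c-Jun list scored higher where other factors were also present. The median c-Jun score was 309.5 over the 10942 c-Jun peaks in regions with all 4 factors, 200.2 over the 5148 c-Jun peaks shared with RUNX1 alone, and 119.9 over the 1068 c-Jun peaks shared with MyoG alone. On 19 of 19 chromosomes the median of the c-Jun-only regions lay below that of c-Jun peaks in regions with all 4 factors. The c-Jun-only regions and the c-Jun regions joined only by MyoG thus had the lowest medians, and their quartiles overlapped almost fully, from 70.55 to 234.7 and from 72.94 to 264.9. The score comes from a list that the rule used, so these values are a description.

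Ranked by score and divided into 10 classes of 4148 peaks, the c-Jun list showed a steady decline of solitary peaks. In the weakest class, 51.0% of c-Jun peaks were c-Jun-only. The share was 36.4% in the fifth class and 11.1% in the strongest class, where scores were 956.4 or higher. Regions with all 4 factors took the opposite course, from 13.4% of the weakest c-Jun peaks to 53.4% of the strongest. Sharing with RUNX1 alone changed little, between 9.86% and 14.4% over the 10 classes. The decline from the weakest to the strongest class was seen on 19 of 19 chromosomes, with 44.4% to 61.9% of the weakest peaks and 8.12% to 16.2% of the strongest peaks being c-Jun-only.

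**Figure D1:**
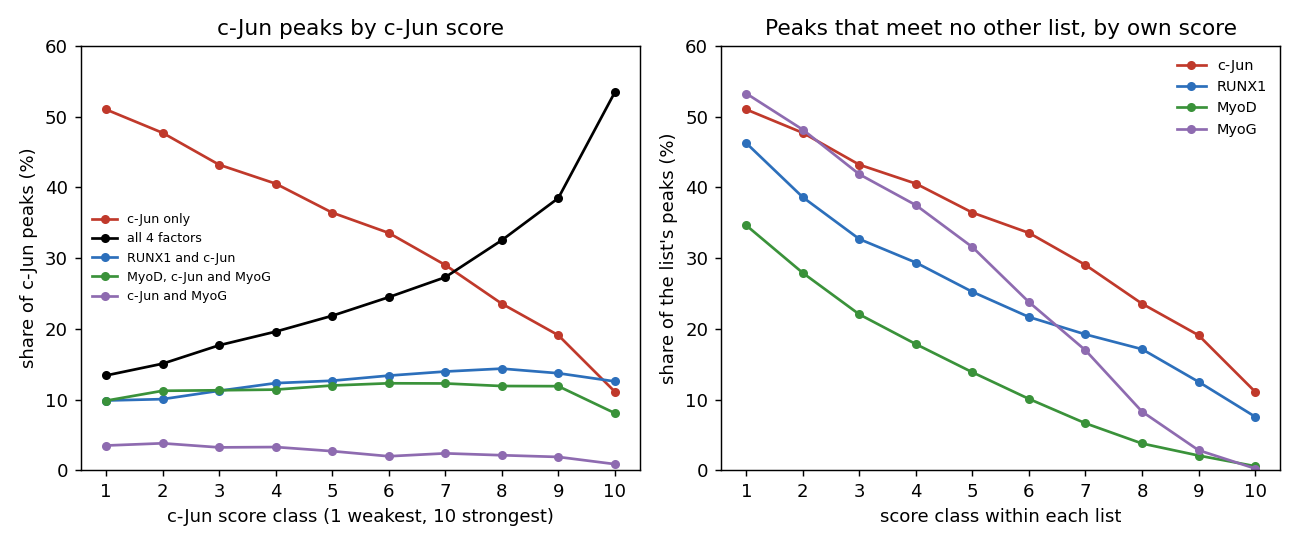
The left panel plots the share of c-Jun peaks (%) in 5 of the region types against the c-Jun score class, from 1 (weakest) to 10 (strongest), and the c-Jun-only share falls from 51.0% to 11.1% while the share with all 4 factors rises from 13.4% to 53.4%. The right panel plots, for each list ranked by its own score, the share of peaks (%) that met no peak of another list; each point is 1 score class on chromosomes 1 to 19.

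Solitary peaks of the other lists were also found mostly at low scores, but the strong end differed in these values. In the strongest class, 461 c-Jun peaks (11.1%) met no other list, against 320 RUNX1 peaks (7.58%), 26 MyoD peaks (0.575%) and 15 MyoG peaks (0.244%). Of the 43744 regions with a MyoD peak, 12071 held MyoD and MyoG and no other factor. MyoD and MyoG also met in the 10532 regions with all 4 factors, in 6615 with RUNX1 and in 4638 with c-Jun. With the MyoG list left out, an alternative added after the data were seen, the strongest class held 12.0% solitary c-Jun peaks, 13.8% solitary RUNX1 peaks and 8.98% solitary MyoD peaks. The low MyoD value therefore depended on the MyoG list, the c-Jun value moved little without that list, and the order of c-Jun and RUNX1 was reversed. In the strongest class, 12.6% of c-Jun peaks were shared with RUNX1 alone, 3.23% with MyoD alone and 0.868% with MyoG alone. The RUNX1 and MyoD lists were not left out in turn, so how far the c-Jun value depends on them was not measured.

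A small group of c-Jun-only regions reached the top of the score range. Many scores sit at exactly 3100, and the 322 c-Jun peaks at or above that value included 22 c-Jun-only regions (6.83%). Of these 22, 12 had a peak of another factor within 10 kb and 3 within 1 kb. The highest score, 3209, belonged to the region chr3:95963533-95965812, which was 2280 bp wide. Its nearest peak of another factor was a MyoG peak 6.52 kb away, and the nearest RUNX1 and MyoD peaks were 10.3 kb and 18.4 kb away. The next was chr15:59311722-59313019 with a score of 3170, 25.5 kb from a MyoG peak and over 38.0 kb from RUNX1 and MyoD. The third, chr3:151108437-151109876, scored 3134 and stood 58.9 kb from the nearest peak of any other factor. These 3 regions thus combined top c-Jun scores with gaps that exceeded their own widths. Such gaps were common: over all c-Jun-only regions the lower quartile of the gap was 1874 bp and the median width 1068 bp.

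The remaining 7 of the 10 named regions scored exactly 3100 and were taken from the 19 c-Jun-only regions at that value by width. The widest of them, chr19:57419422-57423725, spanned 4304 bp and lay 11.02 kb from a RUNX1 peak. In chr15:11503355-11505018 the nearest MyoD peak was 8.11 kb away, whereas the nearest RUNX1 peak was 166.5 kb away. The region chr14:64986578-64988037 was the closest to other binding, with a MyoD peak at 4.01 kb and a MyoG peak at 4.12 kb, and RUNX1 at 66.4 kb. The others were chr11:17367978-17369663, chr13:17602539-17604137, chr13:45718592-45720168 and chr6:51916794-51918340, with gaps of 10.6 to 34.5 kb. MyoD or MyoG was nearer than RUNX1 in 6 of these 7 regions, all but the one on chromosome 19. RUNX1 was also nearest to chr3:151108437-151109876, at 58.925 kb against 58.941 kb for MyoD. The count sets lists of 45201 MyoD and 61491 MyoG peaks against 42226 RUNX1 peaks. The share over all c-Jun-only regions was not counted, so no trait of the top regions is read from it. Here and below, named regions were chosen without chromosome 18.

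The c-Jun-only regions had a median width of 1068 bp (quartiles 972.0 and 1160 bp), against 1224 bp for c-Jun peaks in regions with all 4 factors and 1077 bp for those shared with MyoG alone. Width followed the score. From the weakest to the strongest score class, the median width of c-Jun-only peaks rose from 892.0 to 1310 bp. Beside c-Jun peaks with a partner in the same score class, c-Jun-only peaks were narrower in 7 of 10 classes. The difference was widest in the strongest class, at 1310 against 1451 bp, and had the other sign in the weakest, at 892.0 against 878.0 bp. At matched scores below the strongest class the widths thus differed by less than 60 bp. A wider peak meets the 1 bp rule for sharing more easily, so width is not independent of membership. These values are a description.

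Most c-Jun-only regions had another factor within 10 kb, as did the other solitary regions. A peak of RUNX1, MyoD or MyoG was found within 10 kb of 65.2% of them (9064 regions), within 1 kb of 15.7% and within 100 kb of 97.9%. The median gap was 5564 bp. RUNX1-only regions had a peak of another list within 10 kb in 70.8% of cases (median gap 4539 bp), MyoD-only regions in 65.8% (5219 bp) and MyoG-only regions in 73.9% (4046 bp). The c-Jun-only regions thus had the lowest share within 10 kb and the longest median gap of the 4 solitary kinds, close to MyoD-only regions. The target lists differed in length (128907 to 148918 peaks). At wider reach MyoD-only regions had the lowest shares, 92.5% within 50 kb and 96.1% within 100 kb. The c-Jun-only shares were 94.1% and 97.9%. Among c-Jun-only regions, the share within 10 kb ran from 59.0% on chromosome 16 to 75.1% on chromosome 11. By factor, the median gap was 9523 bp to MyoG, 10851 bp to MyoD and 12981 bp to RUNX1. The lists hold 61491 MyoG, 45201 MyoD and 42226 RUNX1 peaks, and the gaps follow the order of these numbers.

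Among the 2185 c-Jun-only regions with another factor within 1 kb, MyoD was the nearest for 893 (40.9%), RUNX1 for 789 (36.1%) and MyoG for 503 (23.0%). Counting every factor within 1 kb and not only the nearest gave another order, with MyoG at 1323 regions, MyoD at 1246 and RUNX1 at 1101. Gaps run to a peak's edge, and median peak widths were 641 bp in the MyoG list, 818 bp in the MyoD list and 945 bp in the RUNX1 list. Which factor stands closest thus depended on the way of counting, and the part of peak width in it was not tested. Regions with all 4 factors were farther off, at a median gap of 55570 bp, and 16.9% of c-Jun-only regions had one within 10 kb. The corresponding medians to regions with all 4 factors were 45576 bp for RUNX1-only, 61738 bp for MyoD-only and 35666 bp for MyoG-only regions, so the c-Jun-only value lay inside the range of the other solitary regions.

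The strength of a c-Jun-only region did not track its gap to other factors. The median score was 120.2 in the 226 regions with another factor under 0.1 kb away, 117.7 in the 4376 regions at 1 to 5 kb, 113.5 in the 4758 regions at 5 to 20 kb and 117.9 in the 290 regions at 100 kb or more. Over the 6 ranges of gap, lower quartiles lay between 69.10 and 71.90 and upper quartiles between 221.8 and 243.8, so the distributions overlapped almost fully. In the other direction, the median gap was 6.03 kb for c-Jun-only peaks of the weakest score class and 5.60 kb for those of the strongest. The share with another factor within 10 kb was 62.9% in both the weakest and the strongest class, and highest in class 8, at 71.2%. Scores of c-Jun-only regions were thus shifted downward from those of most shared c-Jun regions, with overlapping quartiles, and showed no such shift between near and far c-Jun-only regions.

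**Figure D2:**
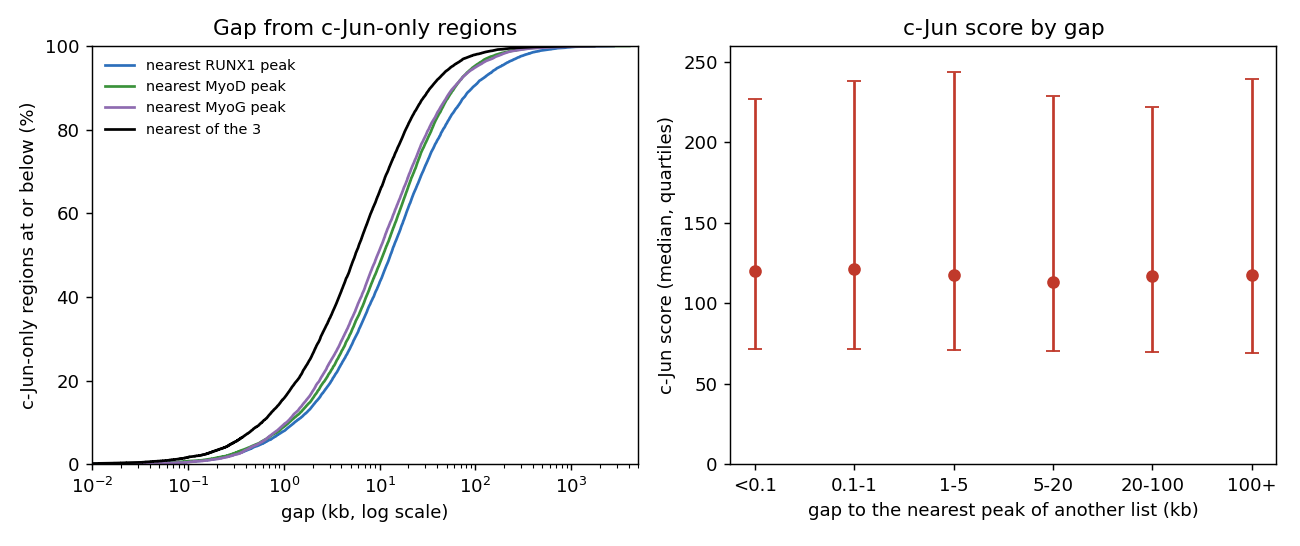
The left panel plots the cumulative share of the 13905 c-Jun-only regions (%) against the gap to the nearest RUNX1, MyoD or MyoG peak in kb on a log axis, and the curve for the nearest of the 3 passes 65.2% at 10 kb. The right panel plots the median c-Jun score with quartile bars for 6 ranges of that gap, and the medians stay between 113.5 and 121.3.

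The regions close to the overlap rule resembled those on its other side. There were 107 c-Jun-only regions with another factor's peak within 50 bp, with a median c-Jun score of 119.5, and 116 c-Jun peaks that shared at most 50 bp with another peak, with a median of 128.1. The strongest just inside the rule was chr9:49731524-49732874, with a score of 1413 and a MyoG peak 48 bp away. It was followed by chr4:148628845-148630396 with 1329 and chr8:126157227-126159219 with 1176, 36 bp and 39 bp from MyoD peaks. Just outside the rule, chr1:75343360-75344728 had a score of 2241 and shared 2 bp with a MyoD peak. In chr8:131176144-131177390, with 1368, and chr1:34179381-34180908, with 1230, RUNX1 peaks shared 48 bp and 21 bp. A further 821 c-Jun peaks were counted as shared through partners that all scored below 60, close to the lowest score of the lists.

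The number of c-Jun-only regions depended on the overlap rule and the score limits. With centres within 150 bp as the rule it was 22374 c-Jun peaks (53.9%), with only the stronger 50% of the other lists 21039 regions (51.3%), and with only the stronger 50% of the c-Jun list 4826 regions (23.5% of such c-Jun regions).

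Toward parts of the genome dense in regions without c-Jun, c-Jun-only regions rose less in number than shared c-Jun regions. Bins of 1 Mb that held any merged region were ranked by their number of merged regions without c-Jun and divided into 5 groups. A bin with 0 regions without c-Jun thus entered the sparsest group only through a c-Jun region. From the sparsest to the densest group, shared c-Jun regions rose from 1.22 to 26.0 per bin, and c-Jun-only regions from 1.35 to 9.17 per bin. The c-Jun-only share of c-Jun regions accordingly fell from 52.6% to 26.1%. It was lower in the densest than in the sparsest group on 19 of 19 chromosomes, with 40.0% to 61.4% in the sparsest and 23.1% to 31.2% in the densest. Over the 2278 bins, the number of c-Jun-only regions and the number of regions without c-Jun had a Pearson r of 0.556 and a Spearman rho of 0.683. For shared c-Jun regions they were 0.874 and 0.907. A shared c-Jun region holds another factor's peak by the rule, and the bins were ranked by regions of the other factors. Part of these differences is thus built in by the rule, and evenness along the genome was not measured. Bins also share their sequence content and mappability between lists, so these are descriptions.

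For comparison, RUNX1-only regions fell from 37.4% to 23.3% of RUNX1 regions and MyoG-only regions from 32.3% to 26.8% of MyoG regions, with bins ranked by regions without the list in question. MyoD-only regions fell from 36.2% to 10.2%. All 4 shares were thus lower in the densest than in the sparsest bins, with wider spans for c-Jun and MyoD than for RUNX1 and MyoG. No test of these differences was made, since the lists hold no replicates. For each list the ranking and the rule are tied in the same way as for c-Jun.

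Single chromosomes also differed. The c-Jun-only share was lowest on chromosome 11 (29.2%, 750 regions), chromosome 7 (29.6%) and chromosome 17 (30.5%), and highest on chromosome 13 (38.1%, 769 regions). Chromosome 11 also held the most merged regions without c-Jun per Mb, 34.4, against a median of 23.8. On 19 of 19 chromosomes the c-Jun-only share was above the RUNX1-only share of RUNX1 regions (23.9% to 27.4%), the MyoD-only share of MyoD regions (11.6% to 17.4%) and the MyoG-only share of MyoG regions (25.2% to 29.4%). The narrowest margins were on chromosome 7, where the c-Jun share was 29.6% and the MyoG share 29.1%, and on chromosome 11, where c-Jun had 29.2%, MyoG 27.9% and RUNX1 27.4%. This order depended on the MyoG list. Without it, an alternative added after the data were seen, solitary regions were 36.6% of c-Jun, 36.6% of RUNX1 and 42.2% of MyoD regions. The c-Jun share was then above the RUNX1 share on 10 of 19 chromosomes and above the MyoD share on 0 of 19.

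**Figure D3:**
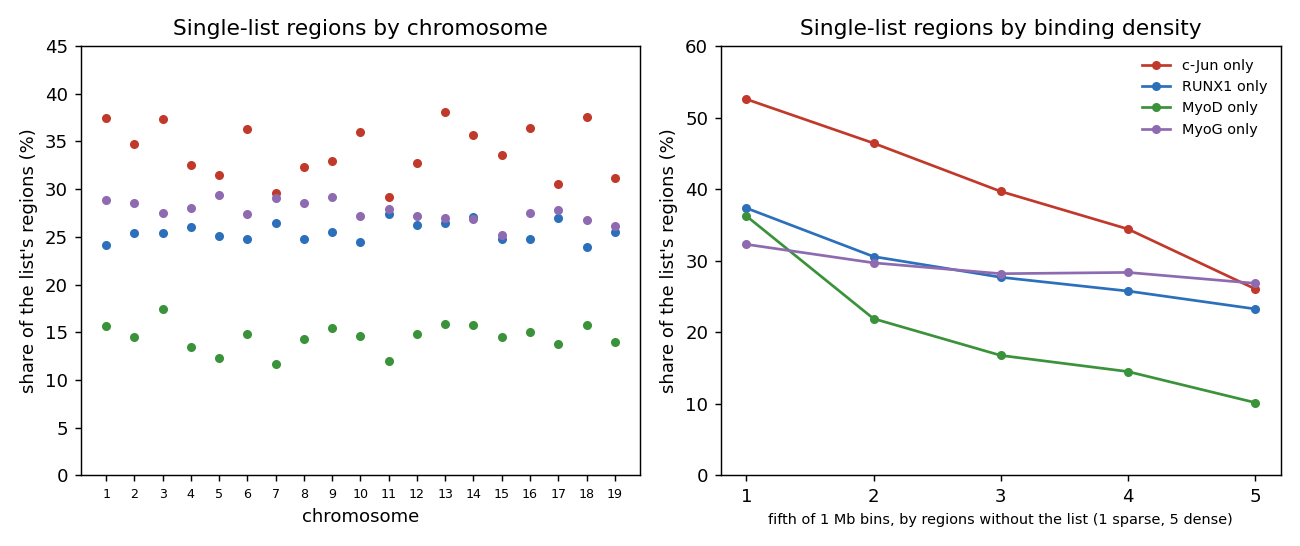
The left panel plots, for each of chromosomes 1 to 19, the share of each list's regions (%) that held that list alone; c-Jun points (red) lie between 29.2% and 38.1%, above those of RUNX1 (blue), MyoD (green) and MyoG (purple), an order that holds with all 4 lists and not without the MyoG list. The right panel plots the same share for 5 groups of 1 Mb bins ordered by the number of regions without that list, and the c-Jun value falls from 52.6% to 26.1%.

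c-Jun-only regions stood next to each other somewhat more often than their share of all regions. For 18.9% of them the next merged region along the chromosome was also c-Jun-only, against a share of 14.2% of c-Jun-only among all regions, and the excess was seen on 19 of 19 chromosomes. The ratio of these values was 1.33, between 1.21 for MyoG-only and 1.48 for MyoD-only regions, so it was not outside the range of the other solitary regions. Regions with all 4 factors had a ratio of 1.25. Counted as uninterrupted runs, 9285 c-Jun-only regions (66.8%) stood alone between other regions, 3132 formed pairs and 930 formed runs of 3. There were 31 runs of 5, and the longest 2 runs held 9 regions each.

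The 3 longest runs differed in scale. A run of 9 on chr1:19764215-20022730 spanned 258.5 kb, and c-Jun peaks covered 3.68% of it. Its scores ranged from 53.55 to 260.7 and its widths from 863 to 1190 bp, so these were ordinary, spaced peaks in a stretch without other factors. A run of 9 on chr11:98081334-98108434 fitted into 27.1 kb and was 49.4% covered by c-Jun peaks. There, widths reached 3139 bp, and neighbouring peaks were as little as 28 bp apart. A run of 8 on chr3:89813880-89838840 was alike, with 24.96 kb, 52.6% covered, widths up to 2595 bp and a smallest gap of 67 bp. Scores in both compact runs stayed moderate, with medians of 121.3 and 139.8 and maxima of 250.1 and 392.5. Both compact runs were thus stretches of wide, closely set and moderately scored peaks of the c-Jun list. Reads and IgG controls at these stretches were not analysed here, so whether each listed peak is a separate site of c-Jun binding is unknown.

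**Figure D4:**
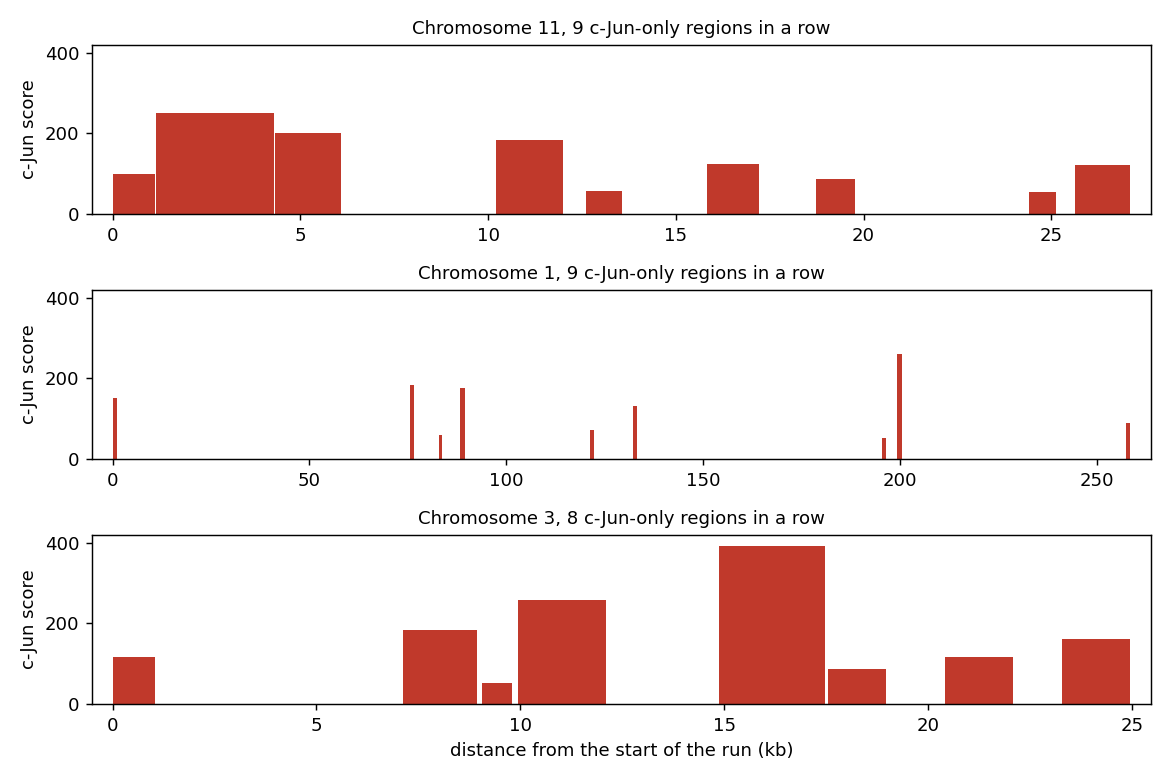
Each panel plots 1 of the 3 longest runs of consecutive c-Jun-only regions, with bars from the start to the end of each region on a scale of kb from the start of the run and a height equal to its c-Jun score. The runs on chromosomes 11 and 3 are packed into 27.1 and 24.96 kb, whereas the run on chromosome 1 spreads over 258.5 kb.

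Other compact runs, chosen after their values were seen, were 7 regions on chr1:55045820-55072617, which spanned 26.8 kb with 32.9% covered, and 6 on chr7:117183461-117200325, which spanned 16.9 kb with 45.3% covered. Over all c-Jun-only regions, 300 (2.16%) lay under 500 bp from the next c-Jun-only region of their run, and a further 1354 (9.74%) at 500 bp to 5 kb. Of the former 6.33% and of the latter 5.69% were wider than 1500 bp, against 3.17% of those that stood alone. Median scores of the 3 sets were 124.2, 117.4 and 116.2.

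In windows of 100 kb, 8922 windows held at least 1 c-Jun-only region, and 5557 of them held exactly 1. The fullest, chr1:164600001-164700000, held 10 c-Jun-only regions among 12 merged regions, with 1 shared c-Jun region and no region with all 4 factors. Windows on chr13:110400001-110500000 and chr3:89800001-89900000 held 9 each, beside 4 and 5 shared c-Jun regions. The window chr6:17000001-17100000 held 8 and no region with all 4 factors, and 7 windows were tied at 7. In 705 windows (7.90%) c-Jun-only regions were the only merged regions, and 876 c-Jun-only regions lay in them. At the other end, 6432 c-Jun-only regions (46.3%) shared their window with a region that held all 4 factors. The same shares were not counted for other kinds of regions, so neither is read as particular to c-Jun-only regions. Among the named dense windows, those on chromosomes 13 and 3 thus held a region with all 4 factors, and those on chromosomes 1 and 6 held none.

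Outside chromosome 18, the 5 most isolated regions were 1198 kb or more from the nearest peak of another factor. The farthest, chr14:39822739-39823568, was a weak peak with a score of 55.35, at 1737 kb from the nearest MyoG peak. The region chr1:112379574-112380827 stood 1380 kb from RUNX1 and scored 757.1, within the ninth score class of the c-Jun list. The other 3, chr11:38322842-38323872, chr6:80569131-80570294 and chr2:89036080-89037100, scored 78.55, 289.5 and 128.2. Isolation was therefore found with weak and with strong c-Jun peaks alike.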

How the data were processed

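ChIP-seq peak lists of 4 factors were used, 1 list per factor, as the authors deposited them. Per the submitters' processing notes, the build was mm9 and CASAVA 1.7.0 and 1.8.2 and Bowtie were used. Peak names in the deposited files begin with MACS, and for MACS the version, settings, control and pooling were not given in the sources used here. Each deposited peak carries a score written by the authors' software. The score was used to rank peaks within a list, and its values were summarised as medians and quartiles for c-Jun peaks. Fixed score limits were also used to count peaks. The low limit for partners of shared c-Jun peaks was the same for all the other lists. Chromosomes 1 to 19 were kept. Peaks overlapping by 1 bp or more were merged in Python 3.11.15 (numpy 2.4.6, pandas 2.3.3). The merge and the nearest gaps were checked against brute force on simulated peaks. The number of merged regions in the real lists was checked against bedtools 2.31.1. Gaps run from edge to edge. Intervals of shares are 95% Wilson intervals, and those of medians, used only to label alternatives, are 95% order-statistic intervals (scipy 1.17.1). Figures used matplotlib 3.10.9. The members, lists and comparisons were chosen with earlier results of these data known. Named regions were those of highest c-Jun score, greatest isolation, longest runs, fullest 100 kb windows, and nearest the overlap rule, without chromosome 18. Planned motif, promoter and gene analyses were not run, since the genome tables at hand are of another build, so no sequence or gene is named. Alternatives changed the overlap rule, the score limits, the chromosomes and, added after the data were seen, the use of the MyoG list.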

Additional observations from a re-analysis of the deposited data

How the results depend on the processing

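The alternatives gave 35 values of the 5 main results (number, share, score, width and nearness of c-Jun-only regions). Of these, 14 stayed within the 95% interval of the main value (for the number of regions, within 1.5 times) and 21 moved. The intervals treat regions as independent and narrow with their number, so these counts do not measure spread between cultures. With centres within 150 bp as the rule, c-Jun-only peaks numbered 22374 (53.9% of c-Jun peaks), with a median score of 143.6, a median width of 1102 bp and another factor within 10 kb of 78.4%. An overlap of 50% of the shorter peak gave a c-Jun-only share of 35.7% and 67.3% within 10 kb, and other peaks widened by 500 bp on each side gave 32.4% and 61.9%. In the stronger 50% of the c-Jun list, 4826 regions (23.5%) remained by construction, with a median score of 321.0, a median width of 1191 bp and 66.9% within 10 kb. With the stronger 50% of the other lists, there were 21039 regions (51.3%), with a median score of 129.4, a median width of 1082 bp and 49.9% within 10 kb. Without the MyoG list the share was 36.6%, with 60.6% within 10 kb. The c-Jun-only share minus the RUNX1-only share moved from 8.41 to 0.030 percentage points without that list, and minus the MyoD-only share it turned from 19.6 to -5.55 points. With chromosome X added, none of the 5 values moved. No paired analysis was possible because each factor has a single list without separate replicates, and leaving out a replicate was not possible for the same reason. The promoter and motif results and their alternatives were not run. Depth is unknown, so weak binding of the other factors at c-Jun-only regions was not detectable here.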

Other observations

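On chromosome X, which the rule leaves out, 340 of 653 c-Jun regions (52.1%) were c-Jun-only, above the highest share on chromosomes 1 to 19 (38.1%). Their median score was 103.9 and their median width 1053 bp, and another factor lay within 10 kb of 40.3% of them, with a median gap of 14.8 kb. On the same chromosome 38.2% of RUNX1, 25.8% of MyoD and 35.3% of MyoG regions held their list alone, so all 4 shares were above their ranges on chromosomes 1 to 19.

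The widest c-Jun-only region outside chromosome 18, chr17:39979444-39986364, is named here because of its width and was picked after seeing the values. It was 6921 bp wide, scored 2053 and lay 987.7 kb from the nearest peak of another factor. Reads and the IgG control there were not analysed here, so its width and score stand as listed, and whether they are c-Jun binding is unknown. The next widest were chr15:102318273-102323376, with 5104 bp and a score of 815.3, and chr1:59762051-59766676, with 4626 bp and a score of 625.3. Only 99 c-Jun-only regions (0.712%) were wider than 2000 bp. Among 1525 bins of 1 Mb with 10 or more c-Jun regions, the highest c-Jun-only share outside chromosome 18 was 83.3%, on chr12:41000001-42000000, with 10 c-Jun-only and 2 shared c-Jun regions and 21 regions without c-Jun. In chr13:109000001-110000000 there were 14 c-Jun-only and 3 shared c-Jun regions (82.4%).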
